A study of Mus musculus with 60 samples.

Results

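A set of 10 genes that are seldom discussed in the ventral midbrain were followed through 5 regions of the mouse embryonic brain on 4 days of development. The genes are Elovl3, Gucy2c, Slc35d3, Cpne7, Hepacam2, Iqcj, Tmem207, Fam210b, Ccdc3 and Chodl, 10 of 24378 listed features. They were selected on measured values, because they read higher in the ventral midbrain than in the other regions and stand outside the usual lists of dopaminergic genes. That difference is therefore described here and not tested.

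The tissue came from TH-GFP mouse embryos, in which a fluorescent protein under tyrosine hydroxylase control marks dopaminergic cells, and all 60 libraries share this genotype. The ventral midbrain, ventral forebrain, ventral hindbrain, dorsal midbrain and alar plate were each taken daily from E11.5 to E14.5, with 3 libraries in each of the 20 groups and no other treatment. The ventral midbrain samples hold the floor plate with the basal plate and were cut out under ultraviolet light, so each is a mixture of progenitors, young dopaminergic neurons and other cells. Fewer cells of a type and less RNA per cell cannot be told apart in such pieces.

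The ventral midbrain is the birthplace of the dopaminergic neurons that later form the substantia nigra and the ventral tegmental area. Floor plate progenitors that carry the transcription factors Lmx1a and Foxa2 leave the cell cycle and switch on Th, which encodes the rate-limiting enzyme of dopamine synthesis, and later Slc6a3, which encodes the dopamine transporter. Motor neurons of the oculomotor nucleus and GABAergic neurons are born beside them in the same tissue.

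Depth differed between stages: in units of 1000000 assigned reads, E12.5 libraries held 8.67 to 13.1 and E13.5 libraries 4.97 to 23.6, while those of E11.5 and E14.5 held 1.58 to 6.43 and 0.979 to 6.13. The ventral midbrain label was matched by its markers from E12.5 on, where Lmx1a was 32.6 RPKM or more and Th 60.7 RPKM or more in each of the 9 libraries. Several E11.5 libraries went against their labels. Ventral midbrain replicate 4 read 1.16 RPKM of Lmx1a against 45.9 and 53.6 in the other two, and ventral forebrain replicate 2 read 130 RPKM. RPKM are reads per kilobase of transcript and per 1000000 assigned reads. Whether replicates are separate embryos is not stated in the labels, and p-values therefore measure only the spread among these libraries, which may be technical. In the ventral midbrain each stage carries a run prefix of its own, so stage and run cannot be told apart.

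The start regions of 4 of the genes are shown because they represent the patterns described below: Tmem207 and Slc35d3 read low outside the ventral midbrain, Ccdc3 was shared with the ventral hindbrain, and Chodl changed its leading region between stages. Each is the 250 bases before the RefSeq start site (GRCm38.p6, gene strand, 5′ to 3′), with every CG pair in capitals.
Tmem207 (chr16:26526772-26527021, minus strand): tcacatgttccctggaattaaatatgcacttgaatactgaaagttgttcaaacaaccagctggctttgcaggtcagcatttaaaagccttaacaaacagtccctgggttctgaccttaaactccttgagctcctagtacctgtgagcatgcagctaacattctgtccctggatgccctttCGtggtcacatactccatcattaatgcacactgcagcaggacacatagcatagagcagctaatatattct
Slc35d3 (chr10:19851460-19851709, minus strand): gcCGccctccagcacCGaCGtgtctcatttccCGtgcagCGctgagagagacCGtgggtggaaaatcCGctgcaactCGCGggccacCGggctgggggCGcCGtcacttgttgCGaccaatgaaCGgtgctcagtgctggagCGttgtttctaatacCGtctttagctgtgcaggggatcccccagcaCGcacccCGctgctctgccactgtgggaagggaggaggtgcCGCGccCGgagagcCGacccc
Ccdc3 (chr2:5137526-5137775, plus strand): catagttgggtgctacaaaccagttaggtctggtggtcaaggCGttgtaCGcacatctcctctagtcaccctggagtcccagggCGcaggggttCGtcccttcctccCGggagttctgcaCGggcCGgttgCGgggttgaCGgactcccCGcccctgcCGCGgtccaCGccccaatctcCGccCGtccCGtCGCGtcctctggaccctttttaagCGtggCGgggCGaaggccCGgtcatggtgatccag
Chodl (chr16:78930698-78930947, plus strand): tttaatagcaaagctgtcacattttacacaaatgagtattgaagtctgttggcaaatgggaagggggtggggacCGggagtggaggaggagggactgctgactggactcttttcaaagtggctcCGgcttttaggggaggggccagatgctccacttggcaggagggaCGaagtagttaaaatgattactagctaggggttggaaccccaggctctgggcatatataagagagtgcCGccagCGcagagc
Tmem207 held 1 CG pair and Chodl 5, while Slc35d3 and Ccdc3 held 22 each. Over 32851 start regions of the same length the median was 6, with quartiles of 2 and 16. Of the other members that could be matched, Fam210b held 18, Iqcj 5 and Hepacam2 1. CG content thus differed widely among the members. The RefSeq start of Hepacam2 lies inside the GENCODE span of the gene, so its window is not upstream of every annotated transcript.

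The same 7 start regions were searched on both strands for short motifs of factors known in these cells. Neither forkhead form (TGTTTAC, in 3.17% of all start regions, and TGTTTGC, in 4.3%) was present. The homeodomain core TAATTA (4.84%), the Pitx site TAATCC (6.25%) and the Nr4a site AAAGGTCA (1.34%) were not present either. The letters TATAAA, in 12.37% of start regions, occurred in Hepacam2. An empty search says only that these letters are not in these windows.

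**Figure D1:**
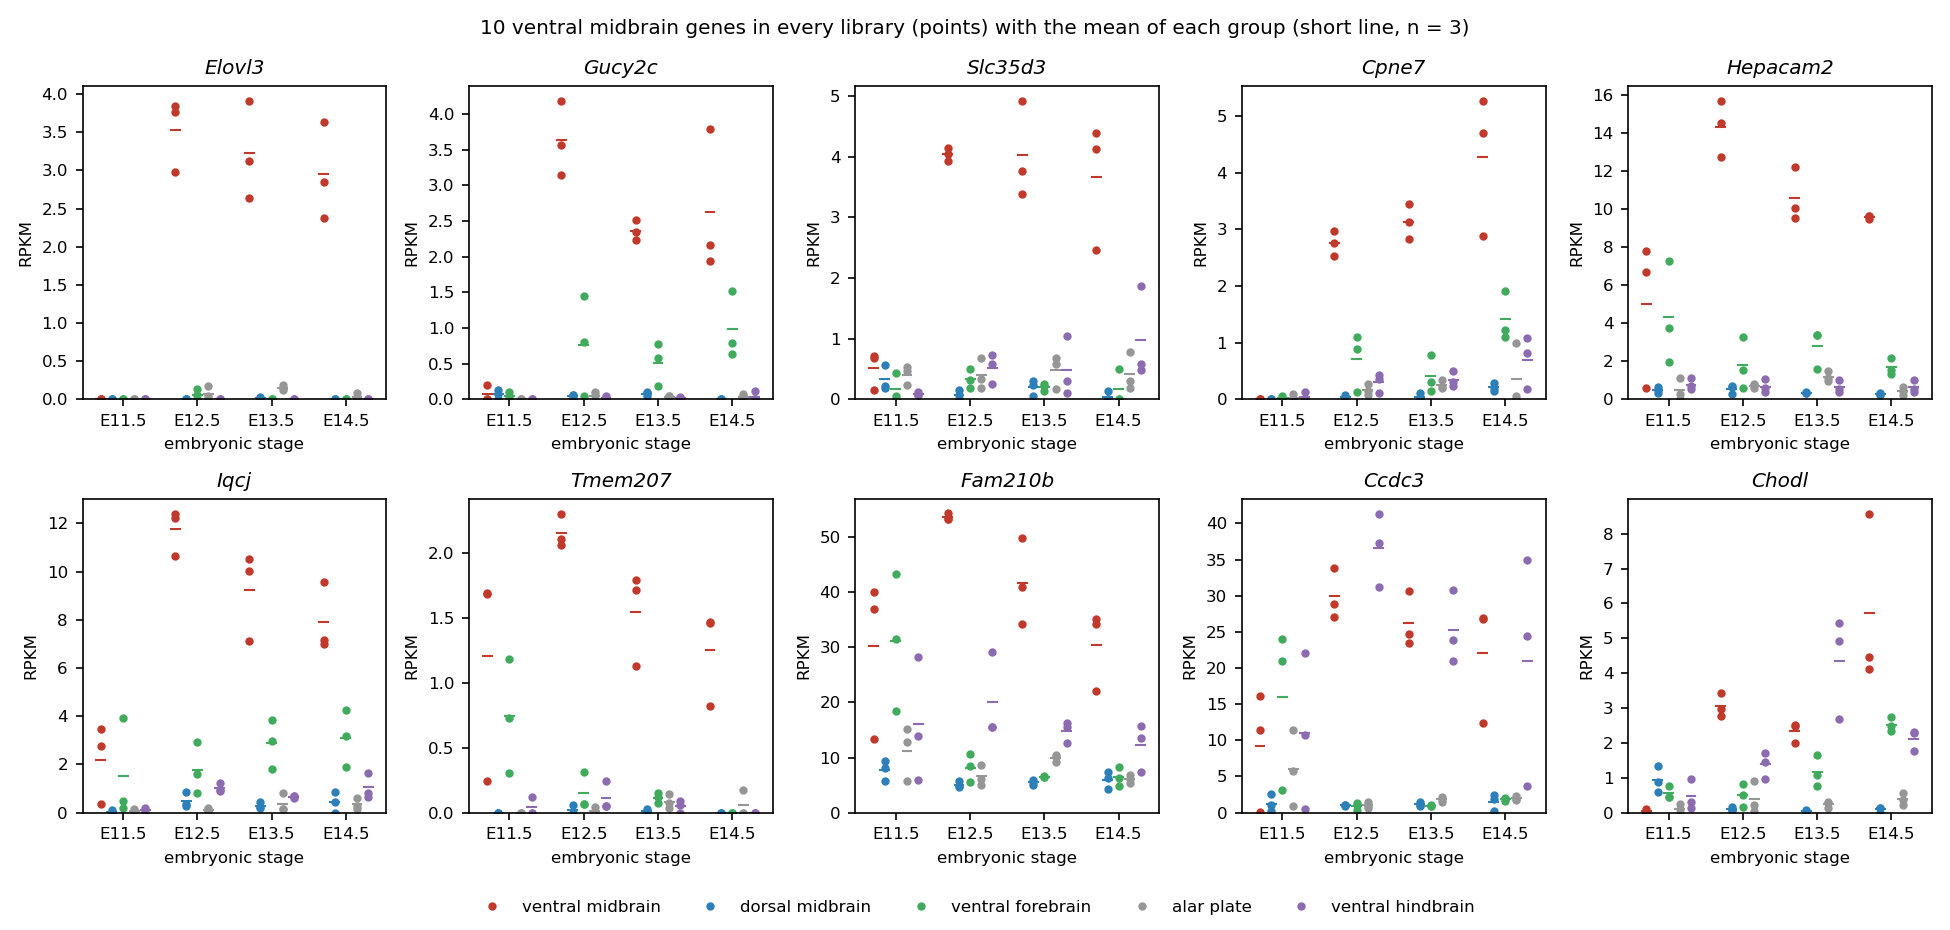
RPKM of the 10 genes in all 60 libraries, 1 panel per gene, with embryonic stage on the horizontal axis, points for libraries coloured by region and a short line for the mean of 3. From E12.5 on the ventral midbrain points stand above all others in most panels; in Ccdc3 the ventral hindbrain is as high, and in Chodl it is higher at E13.5.

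At E11.5 none of the 10 genes had all 3 ventral midbrain libraries above every library of the other regions, and 9 did at E12.5, 8 at E13.5 and 9 at E14.5. The plot of every library by region and stage shows the exceptions, Ccdc3 at the last 3 stages and Chodl at E13.5. The genes were chosen for such differences, so these counts are a description only. The share of all features that stood apart in this way was not counted. Over E12.5 to E14.5 the difference between the ventral midbrain and the mean of the other regions on the log2(RPKM + 1) scale ran from 1.29 ± 0.10 (SE) for Chodl to 2.74 ± 0.10 for Hepacam2. In this contrast 1.97% of 14310 tested features passed as higher and 0.531% as lower (adjusted p below 0.05 and a log2 difference of at least 1). All 10 members lie past those marks because the contrast chose them.

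Elovl3 encodes an enzyme of the endoplasmic reticulum that lengthens saturated and monounsaturated very long-chain fatty acids, best known from brown fat, skin and liver. The gene maps to chromosome 19 (46131897 to 46135694, plus strand, GENCODE vM21 on GRCm38). In the ventral midbrain it read 3.85, 3.77 and 2.98 RPKM in replicates 1, 2 and 3 at E12.5, 2.64, 3.12 and 3.91 in replicates 4, 5 and 6 at E13.5, and 2.38, 2.84 and 3.64 in replicates 2, 3 and 4 at E14.5. The 9 libraries overlapped between stages, and the highest value in any other region was 0.188 RPKM, in the alar plate at E13.5. In the ventral hindbrain no read was counted in any of the 12 libraries. There 3 reads, taken as an approximate upper limit for a count of 0, would have been worth 0.0700 to 0.703 RPKM. No Elovl3 read was counted in any E11.5 library of any region either, and in the ventral midbrain 3 reads were worth 0.303 to 0.700 RPKM there. These floors cover counting error only.

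Elovl3 shares its end with Pitx3, the homeobox gene of dopaminergic neurons, which runs on the opposite strand and overlaps it by 10 bases. Of 10586 features with a group mean of at least 5 RPKM, Pitx3 was the one whose group means were most like those of Elovl3 (Pearson's r = 0.98 over the 20 group means of log2(RPKM + 1), a description with no test). Pitx3 averaged 25.6 ± 4.0 RPKM (SD, n = 3) at E12.5, 28.7 ± 8.49 at E13.5 and 12.9 ± 1.41 at E14.5 in the ventral midbrain. Elovl3 averaged 3.53 ± 0.48, 3.22 ± 0.64 and 2.95 ± 0.64 at those stages, so its mean at E14.5 was 0.836 times that at E12.5 and that of Pitx3 was 0.505 times. Small Elovl3 values in the alar plate also came from libraries with Pitx3 reads, 0.188 RPKM of Elovl3 beside 2.18 of Pitx3 in the highest. The strand of the libraries is not given in the sources used here, so reads from the 10 shared bases cannot be assigned to 1 of the genes. The neighbours at greater distance had a lower r, 0.68 for Gbf1 (rank 69 of the 10586 features) and -0.40 for Nolc1.

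Gucy2c encodes guanylyl cyclase C, the membrane receptor for guanylin and uroguanylin that is best known from the intestine. The gene lies on chromosome 6 (136697284 to 136781765, minus strand). At E12.5 replicates 1, 2 and 3 of the ventral midbrain read 3.14, 4.18 and 3.57 RPKM. At E13.5 replicates 4, 5 and 6 read 2.34, 2.52 and 2.23, and at E14.5 replicates 2, 3 and 4 read 2.17, 3.78 and 1.93. All 3 E13.5 libraries lay below all 3 E12.5 libraries, but the step was not called (log2 difference -0.46 ± 0.19 SE, limma adjusted p = 0.211). The ventral forebrain came next, at 0.0525 to 1.52 RPKM over 9 libraries, while the highest value in the remaining regions over E12.5 to E14.5 was 0.115 RPKM.

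The other parts of this signalling path were examined as a group of 13 genes: cyclases, the ligands and cyclic GMP kinases. Of the 7 tested, none passed in the ventral midbrain against the other regions (limma, median log2 difference -0.09, against -0.03 over all tested features). At an unadjusted p below 0.05 there was 1, and voom on the recovered reads called 1, Prkg1. This cyclic GMP-dependent kinase had means of 3.08 against 1.44 RPKM and a limma log2 difference of 0.75 ± 0.08 (adjusted p = 8.32e-10, below the fold mark). The ligand genes Guca2a and Guca2b averaged 0.016 and 0.195 RPKM in the ventral midbrain, against 0.011 and 0.563 elsewhere. The receptor was thus measured in tissue where its ligand genes read near 0 or no higher than elsewhere.

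Slc35d3 belongs to the nucleotide sugar transporter family and is known from platelet dense granules and from the trafficking of a dopamine receptor. The locus is on chromosome 10 (19847916 to 19851459, minus strand). In the ventral midbrain replicates 1, 2 and 3 read 4.14, 4.04 and 3.93 RPKM at E12.5, replicates 4, 5 and 6 read 3.76, 3.38 and 4.92 at E13.5, and replicates 2, 3 and 4 read 2.46, 4.12 and 4.4 at E14.5. Levels overlapped across these 3 stages, and the ventral hindbrain came next, with 1.87 RPKM in E14.5 replicate 2 as its highest value. That hindbrain library stood apart, since it also read 10.2 RPKM of Lmx1a, a floor plate factor that was 0.131 and 0.108 in the other two. Without it the highest ventral hindbrain value was 1.05 RPKM.

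Of the 22 other Slc35 genes that could be tested, none was called higher or lower in the ventral midbrain by limma (median log2 difference -0.01), 7 had an unadjusted p below 0.05 and voom called 1, Slc35f2. Slc35d1, the nearest tested relative by name, read 2.94 RPKM there and 2.85 elsewhere. Of the 10 tested genes of fatty acid elongation, the family of Elovl3, limma called none, with a median of 0.09, 3 had an unadjusted p below 0.05 and voom called 0. Elovl5 had the smallest adjusted p of these, 24.1 against 21.0 RPKM, a log2 difference of 0.18 ± 0.04 (adjusted p = 0.000595).

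Cpne7 encodes a copine, one of a family of proteins that bind membrane phospholipids when calcium rises. It lies on chromosome 8 (123117374 to 123135182, plus strand) inside the span of the read-through model Gm20388, so reads that fit both cannot be assigned with certainty. Replicates 1, 2 and 3 of the ventral midbrain read 2.53, 2.77 and 2.97 RPKM at E12.5, and replicates 4, 5 and 6 read 3.13, 2.84 and 3.44 at E13.5. At E14.5 replicates 2, 3 and 4 read 4.70, 2.89 and 5.27. The stage means were 2.76 ± 0.22 (SD, n = 3), 3.14 ± 0.30 and 4.28 ± 1.24, but replicate 3 at E14.5 lay within the earlier range and the last step was not called (0.33 ± 0.17 SE, adjusted p = 0.158). The ventral forebrain followed at 0.127 to 1.92 RPKM. Of the 7 other copines tested limma called none (median 0.12), 3 had an unadjusted p below 0.05 and voom called 0, and the highest difference among them was that of Cpne4, 5.55 against 3.56 RPKM (0.56 ± 0.16, adjusted p = 0.00541).

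Hepacam2 encodes an adhesion molecule of the immunoglobulin superfamily that has also been placed at the spindle and centrosome of dividing cells. The gene maps to chromosome 6 (3457096 to 3498298, minus strand), 83 bases from Vps50. Ventral midbrain replicates 1, 2 and 3 read 14.6, 15.7 and 12.7 RPKM at E12.5, replicates 4, 5 and 6 read 10.1, 9.52 and 12.2 at E13.5, and replicates 2, 3 and 4 read 9.65, 9.64 and 9.5 at E14.5. All E13.5 and E14.5 libraries lay below all E12.5 libraries, and neither step was called (-0.41 ± 0.48 SE, adjusted p = 0.683, and -0.12 ± 0.48, adjusted p = 0.860). Its paralog Hepacam, an adhesion gene of glia, was also higher in the ventral midbrain than in the other regions, at 4.38 against 1.52 RPKM (log2 difference 1.27 ± 0.12, adjusted p = 2.38e-10). Their stage means ran in opposite directions: Hepacam read 1.52 to 2.67 RPKM at E12.5 and 6.40 to 8.57 at E14.5, a difference that was not tested. With the E11.5 libraries included the Hepacam difference was 0.94 (adjusted p = 1.03e-10), below the fold mark.

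Iqcj encodes a protein with a calmodulin-binding IQ motif, and a fusion transcript with its neighbour Schip1 gives a protein of the axon initial segment. The gene lies on chromosome 3 (67892220 to 68056593, plus strand), 8208 bases before Schip1, and the fusion model Iqschfp covers 164362 of its bases, so fusion reads cannot be separated from it. In the ventral midbrain, replicates 1, 2 and 3 read 12.2, 10.6 and 12.4 RPKM at E12.5, replicates 4, 5 and 6 read 10.5, 7.11 and 10.04 at E13.5, and replicates 2, 3 and 4 read 7.01, 9.58 and 7.14 at E14.5. The E14.5 libraries lay below the E12.5 libraries without overlap. Schip1 was called as well, at 55.9 against 26.9 RPKM (log2 difference 1.05 ± 0.07, adjusted p = 1.69e-14), but it was read at 8.21 RPKM or more in all 60 libraries, while Iqcj was listed at 0 in 6 of them. Its pattern correlated with that of Iqcj at r = 0.83, rank 22 of the 10586 features.

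Tmem207 encodes a small protein with 1 membrane span. The locus is on chromosome 16 (26503656 to 26526769, minus strand) between Cldn16 and Il1rap. Replicates 1, 2 and 3 of the ventral midbrain read 2.11, 2.06 and 2.30 RPKM at E12.5, replicates 4, 5 and 6 read 1.72, 1.13 and 1.79 at E13.5, and replicates 2, 3 and 4 read 0.821, 1.47 and 1.46 at E14.5. The E12.5 libraries lay above all later ones. These values rest on 3 to 39 reads per library, and elsewhere the highest value over E12.5 to E14.5 was 0.315 RPKM, in the ventral forebrain at E12.5.

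The gene most like Tmem207 over the 20 groups was its neighbour Il1rap, which encodes the accessory chain of the interleukin-1 receptor and starts 54934 bases away (r = 0.93). This first rank depended on the measure. Without E11.5 Mboat1 was more like Tmem207 (r = 0.95, against 0.92 for Il1rap), and by Spearman's rho over the 20 groups Acvr1 was (0.78 against 0.60). Il1rap averaged 9.40 ± 1.09 RPKM (SD, n = 3) at E12.5, 5.36 ± 0.96 at E13.5 and 4.59 ± 1.53 at E14.5 in the ventral midbrain, and 6.45 over these stages against 0.878 elsewhere. Cldn1, a tight junction gene of the same locus, was called higher too, at 5.26 against 0.723 RPKM (log2 difference 1.86 ± 0.11, adjusted p = 1.85e-15). Cldn16, the other flanking gene, averaged 0.0147 RPKM in the ventral midbrain, so not every gene of the stretch was read. For the remaining 8 members no flanking gene was the most like: the nearest were Schip1 for Iqcj and Camk1d for Ccdc3 (r = 0.68, rank 259), among flanking genes that reached 5 RPKM.

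Fam210b encodes a protein of the inner mitochondrial membrane that takes part in haem synthesis of red blood cell precursors. It lies on chromosome 2 (172345565 to 172355749, plus strand), 440 bases from Aurka, and had the highest level of the 10 genes. Ventral midbrain replicates 1, 2 and 3 read 53.3, 53.4 and 54.4 RPKM at E12.5, replicates 4, 5 and 6 read 34.3, 40.9 and 49.8 at E13.5, and replicates 2, 3 and 4 read 22.1, 34.3 and 35.1 at E14.5. The E12.5 libraries lay above all later ones, and neither step was called (-0.37 ± 0.33 SE, adjusted p = 0.566, and -0.45 ± 0.33, adjusted p = 0.310). Outside the ventral midbrain Fam210b was read at a higher level than the genes above, with 4.33 RPKM or more in each library from E12.5 on. The summed level of 5 erythroid marker genes at E12.5 was 797 to 948 RPKM in the ventral midbrain and 702 to 1940 in the other regions. It was 727 to 956 against 552 to 1444 at E13.5 and 155 to 246 against 111 to 524 at E14.5, so the sums overlapped between regions at these stages. At E11.5 it was 2050 to 5979 in the ventral midbrain and reached 20821 in the ventral forebrain, where Fam210b was also high. It also reached 15573 in the alar plate, where Fam210b read 5.71 to 15.2 RPKM. In the dorsal midbrain it was 4791 to 8126, beside 5.73 to 9.41 RPKM of Fam210b, the lowest mean of the 5 regions at this stage. The part of red blood cells in the Fam210b values was not tested. Its relative Fam210a read 4.44 against 4.28 RPKM (0.05 ± 0.05, adjusted p = 0.416), and Aurka 6.35 against 9.71 (-0.41 ± 0.18, adjusted p = 0.0681).

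Ccdc3 encodes a secreted protein known from fat and blood vessel endothelium, and it went against the wording under which it was chosen. The gene maps to chromosome 2 (5137776 to 5230878, plus strand). In the ventral midbrain, replicates 1, 2 and 3 read 27.1, 28.9 and 33.8 RPKM at E12.5, replicates 4, 5 and 6 read 23.4, 24.7 and 30.6 at E13.5, and replicates 2, 3 and 4 read 12.4, 26.8 and 27.0 at E14.5. In the ventral hindbrain the same replicate numbers read 41.3, 31.2 and 37.3 at E12.5, 21.0, 23.9 and 30.8 at E13.5, and 3.70, 35.0 and 24.4 at E14.5. The value of 3.70 came from replicate 2, the hindbrain library that stood apart with 10.2 RPKM of Lmx1a. Without that library the E14.5 ranges of the ventral hindbrain and ventral midbrain still overlapped. The ranges of these 2 regions overlapped at every one of these stages, and the other 3 regions were at or below 2.39 RPKM there. From E12.5 on Ccdc3 was thus high in both the ventral midbrain and the ventral hindbrain. At E11.5 the ventral forebrain had the highest mean, 16.1 ± 11.3 RPKM (SD, n = 3), against 11.1 ± 10.8 in the ventral hindbrain and 9.21 ± 8.19 in the ventral midbrain, with ranges that overlapped. The genes most like it over the 20 groups were Slc17a8 (r = 0.96), a vesicular glutamate transporter, the LIM homeobox gene Lhx4 (r = 0.95) and Smpdl3a (r = 0.95), none of them a dopaminergic marker. The summed level of 3 serotonergic markers (Tph2, Fev and Slc6a4) was high in the same 2 regions from E12.5 on, but not in the ventral midbrain at E11.5. Over E12.5 to E14.5 it was 5.07 to 82.8 RPKM in the ventral hindbrain and 19.6 to 67.4 in the ventral midbrain, and at most 0.810 in the other 3 regions. At E11.5 it was 0.0702 to 0.292 RPKM in the ventral midbrain, where Ccdc3 read 0.145 to 16.1. It was 0.147 to 14.1 in the ventral hindbrain and 0.408 to 23.1 in the ventral forebrain at that stage. The summed level of 5 endothelial markers over E12.5 to E14.5 was 36.1 to 48.6 RPKM in the ventral hindbrain, 41.9 to 99.3 in the ventral midbrain and 24.7 to 70.4 in the other 3 regions. The part of either cell type in the Ccdc3 values was not tested.

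Chodl encodes chondrolectin, a membrane protein of the C-type lectin family known from motor neurons. The locus is on chromosome 16 (78930948 to 78951733, plus strand). Replicates 1, 2 and 3 of the ventral midbrain read 2.76, 2.97 and 3.42 RPKM at E12.5, replicates 4, 5 and 6 read 2.52, 2.0 and 2.5 at E13.5, and replicates 2, 3 and 4 read 4.48, 8.56 and 4.11 at E14.5. In the ventral hindbrain the same replicate numbers read 0.976, 1.72 and 1.44 at E12.5, 5.42, 2.70 and 4.91 at E13.5, and 1.76, 2.31 and 2.27 at E14.5. At E13.5 all 3 ventral hindbrain libraries thus lay above all 3 of the ventral midbrain, and the order was the reverse at the stages before and after. In the ventral forebrain the E12.5 libraries read 0.161 to 0.817 RPKM, those of E13.5 0.766 to 1.65 and those of E14.5 2.33 to 2.74.

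In the ventral hindbrain Chodl and the motor neuron markers were both highest at E13.5 among the stages from E12.5 to E14.5. At E11.5 only the markers were high. Chodl was also higher at E14.5 than at E12.5 without overlap, while the marker sums of these 2 stages overlapped. At E13.5 ventral hindbrain replicates 4, 5 and 6 read 8.21, 2.59 and 8.0 RPKM of Slc18a3, the vesicular acetylcholine transporter. The replicate with the lowest Chodl was also the lowest in Slc18a3. The summed level of 5 motor neuron markers in the ventral hindbrain was 9.74 to 37.4 RPKM at E13.5, against 0.9995 to 5.66 the day before and 1.75 to 6.71 the day after. At E11.5 it was 9.68 to 41.1 RPKM there, as high as at E13.5, while Chodl read 0.121 to 0.976. In the ventral forebrain the sum was 37.2 to 48.2 RPKM at E14.5, the stage at which Chodl was highest there, but Slc18a3 was at most 0.159. The ventral midbrain sums were 26.3 to 36.1, 15.8 to 26.5 and 11.6 to 23.3 from E12.5 to E14.5 in turn, so it was not at its highest there at E14.5, when Chodl was. The part of motor neurons in the Chodl values was not tested.

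**Figure D2:**
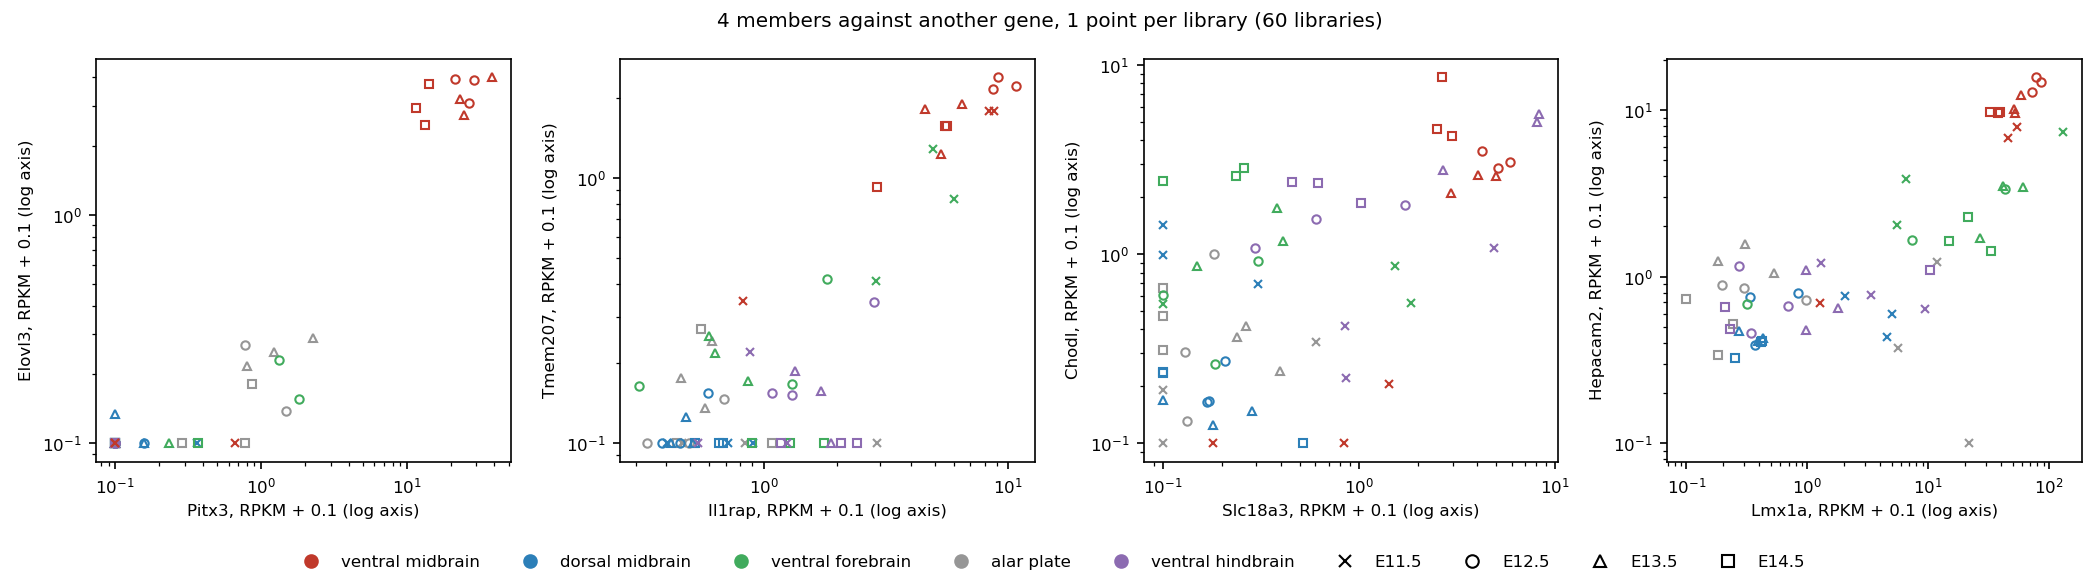
Values of 4 members against another gene in each of the 60 libraries, RPKM + 0.1 on log axes, coloured by region with symbols for stage: Elovl3 against Pitx3, Tmem207 against Il1rap, Chodl against Slc18a3 and Hepacam2 against Lmx1a. Ventral midbrain points from E12.5 on form the upper right of the Elovl3 panel. In the Chodl panel 2 ventral hindbrain E13.5 points stand at the far right, with Slc18a3 of 8.21 and 8.0 RPKM, and the third lies at 2.59.

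The E11.5 libraries were shallower and mixed, and the 10 genes differed in how far they were read there. In ventral midbrain replicates 2, 4 and 6, Hepacam2 read 6.72, 0.599 and 7.80 RPKM, Iqcj 2.75, 0.357 and 3.45, and Tmem207 1.69, 0.244 and 1.68. Fam210b read 40.1, 13.4 and 37.0 RPKM and Ccdc3 16.1, 0.145 and 11.4 in the same 3 libraries. Replicate 4, the library with little Lmx1a, was the lowest in all 5 of these genes. Slc35d3 was lower but read in all 3, at 0.677, 0.147 and 0.708 RPKM. By contrast Elovl3 and Cpne7 had no read in any of the 3, and Gucy2c and Chodl read 0.205 and 0.105 RPKM in replicate 6 alone. In other regions Fam210b and Ccdc3 were as high or higher at this stage, with 31.5 and 43.4 RPKM of Fam210b and 24.0 and 21.0 of Ccdc3 in ventral forebrain replicates 4 and 6. Iqcj and Hepacam2 were high in the Lmx1a-rich ventral forebrain replicate 2, at 3.92 and 7.30 RPKM.

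From E11.5 to E12.5 in the ventral midbrain 8 of the 10 genes were called higher and none lower, where 5.81% of 13868 tested features were called higher and 3.45% lower. Elovl3, Gucy2c, Slc35d3, Cpne7 and Chodl entered this test only through the later stages and so had to differ, and their part of the count supports nothing. Their log2(RPKM + 1) differences were 2.17 ± 0.16 (SE), 2.12 ± 0.19, 1.76 ± 0.21, 1.91 ± 0.17 and 1.97 ± 0.21, sizes that depend on the pseudocount where the earlier stage is at 0.

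Of the 5 genes whose mean reached 1 RPKM at both stages, Iqcj rose by 2.17 ± 0.35 (limma adjusted p = 0.000322), and by 1.64 ± 0.17 (adjusted p = 2.59e-05) without E11.5 replicate 4. Hepacam2 rose by 1.68 ± 0.48 (adjusted p = 0.0118) with all libraries, but the difference was 0.89 ± 0.12 (adjusted p = 0.000123) without that replicate, which is below the fold mark. Ccdc3 rose by 2.30 ± 0.76 (adjusted p = 0.0249) and by 1.08 ± 0.28 (adjusted p = 0.00729) without it. The Ccdc3 call was lost when any 1 of the E12.5 libraries was left out (adjusted p = 0.0514 to 0.0692). Fam210b and Tmem207 were not called, at 0.95 ± 0.33 (adjusted p = 0.0300) and 0.60 ± 0.27 (adjusted p = 0.0867), and at 0.47 ± 0.18 and 0.23 ± 0.19 without that replicate. The p-values of these 5 genes are not free of selection, since the members were chosen on ventral midbrain values that also enter this step.

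**Figure D3:**
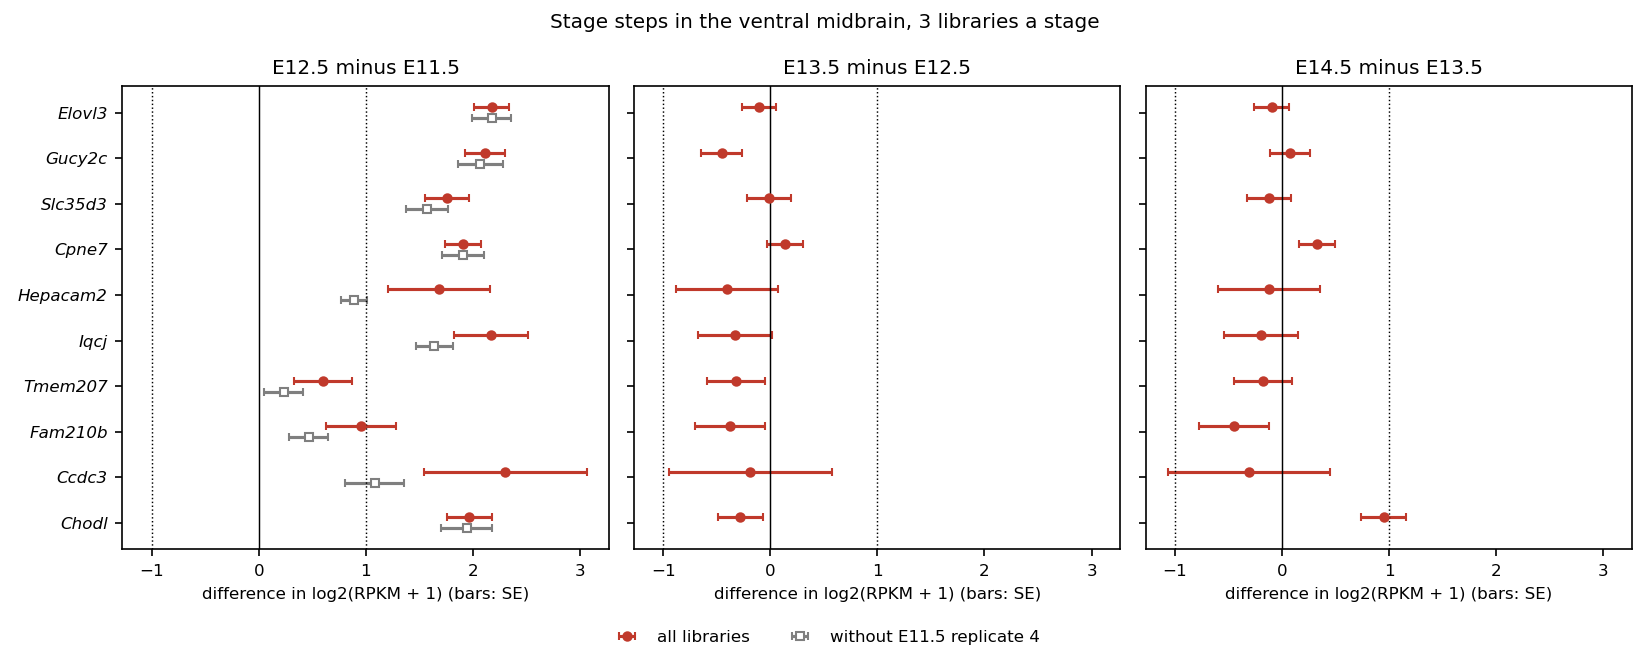
Difference between successive stages in the ventral midbrain for the 10 genes, on the log2(RPKM + 1) scale with standard errors as bars and dotted lines at the fold mark of 1 in either direction; open squares leave out E11.5 replicate 4. The first step is the large one for 8 genes, and Chodl alone comes near the mark at the last step, at 0.95.

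After E12.5 no member was called in either step. Between E12.5 and E13.5 1 member had an unadjusted p below 0.05 and none was called by voom, where 0.0433% of features were called higher and 0.00721% lower. Between E13.5 and E14.5, where 0.599% were called higher and 1.56% lower, 1 member had an unadjusted p below 0.05 and voom called 1. That member was Chodl in the last step, whose difference of 0.95 ± 0.21 (adjusted p = 0.00499) fell just short of the fold mark. It was 1.12 without E14.5 replicate 4, and 0.67 without E14.5 replicate 3, the library with 8.56 RPKM. In the plot of differences between stages all other values of these 2 steps lie between -0.46 and 0.33.

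Among the 4 other regions 6 of the 10 genes were high enough to be tested, on 36 libraries without the ventral midbrain. Elovl3, Gucy2c, Slc35d3 and Tmem207 stayed below a mean of 1 RPKM in every group there. Chodl, Cpne7 and Iqcj entered only through the ventral hindbrain or ventral forebrain, so their differences from the alar plate had to exist and are given as values that support nothing. Hepacam2 entered through the ventral forebrain and the alar plate, so the same holds for its differences from the ventral hindbrain and the dorsal midbrain. The reference for these comparisons was the alar plate, the dorsal part of the embryonic neural tube.

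In the ventral hindbrain 2 members were called higher than in the alar plate, against a background of 2.19% higher and 0.897% lower. Ccdc3 stood 3.30 ± 0.24 higher (adjusted p = 7.83e-11), and Chodl 1.36 ± 0.12, a difference the filter had fixed. Fam210b followed at 0.93 ± 0.14 (adjusted p = 9.78e-06), below the fold mark. Against the ventral forebrain, where 1.57% of features were higher in the hindbrain and 0.847% lower, Ccdc3 was higher by 3.53 ± 0.24 (adjusted p = 1.56e-11) and Fam210b by 1.01 ± 0.14 (adjusted p = 4.07e-06). Without any 1 of 7 libraries the Fam210b difference was 0.92 to 0.999 and its call was lost on the fold mark, and with E11.5 included it was 0.49 (adjusted p = 0.0537).

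In the ventral forebrain the 1 member called higher than in the alar plate was Iqcj, whose difference of 1.45 ± 0.15 the filter had fixed, against 0.932% higher and 0.812% lower among all features. Hepacam2 (0.75 ± 0.14, adjusted p = 0.00045) differed in the same direction below the fold mark. So did Chodl (0.76 ± 0.12) and Cpne7 (0.51 ± 0.13), whose differences the filter had fixed as well. Iqcj was lower in the ventral hindbrain than in the ventral forebrain, by -0.86 ± 0.15 (adjusted p = 0.000154) on the log2 scale, also below the mark. Hepacam2 stood at -0.85 ± 0.14 in that comparison, again a difference the filter had fixed.

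The ventral forebrain libraries of E12.5 varied widely, and the genes varied with them. Replicates 1, 2 and 3 read 0.216, 7.23 and 43.1 RPKM of Lmx1a. In the same order Gucy2c read 0.0525, 0.797 and 1.45 RPKM, Hepacam2 0.589, 1.57 and 3.28, and Iqcj 0.820, 1.59 and 2.92. At E13.5 Lmx1a read 41.7, 26.9 and 61.2 in replicates 4, 5 and 6, and replicate 5 was again the lowest in all 3 genes. The E14.5 libraries did not follow this order. Lmx1a read 14.8, 21.1 and 32.9 RPKM in replicates 2, 3 and 4, but replicate 4 was the lowest in Gucy2c (0.638, against 0.795 and 1.52) and Hepacam2 (1.32, against 1.54 and 2.19). Over these 3 libraries Gucy2c rests on 29 reads and Hepacam2 on 32, so the order at E14.5 is not resolved. Slc6a3 was at most 1.40 RPKM in the 9 ventral forebrain libraries from E12.5 on, against at least 6.81 in the ventral midbrain. The summed level of 7 dopaminergic markers was 29.9 to 104 RPKM in the same 9 libraries, and 310 to 464 in the ventral midbrain. The part of Lmx1a-rich tissue in these values was not tested.

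In the dorsal midbrain against the alar plate (E12.5 and E13.5) no member was called, where 1.74% of features were higher and 1.24% lower. 2 members had an unadjusted p below 0.05, Fam210b (-0.52 ± 0.17, adjusted p = 0.0197) and Hepacam2 (-0.43 ± 0.17, a difference the filter had fixed), and voom on the recovered reads called 3.

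**Figure D4:**
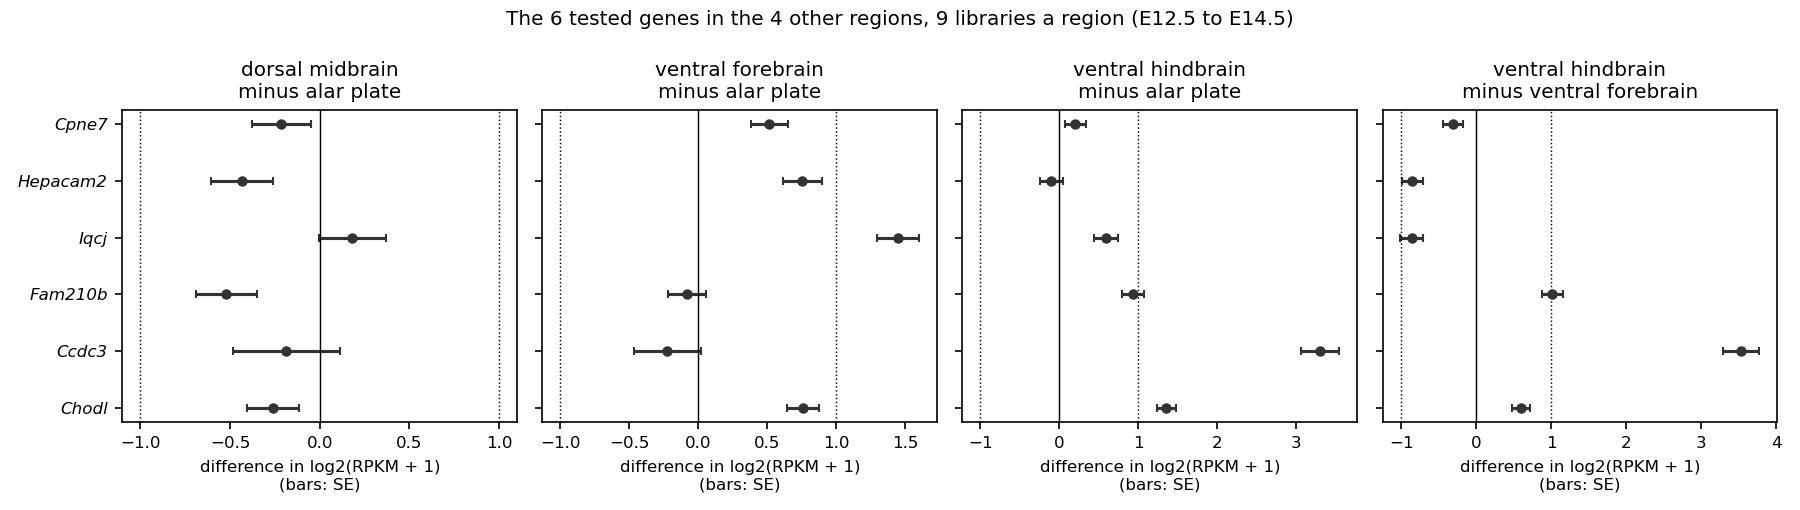
The 6 tested genes compared among the 4 other regions, as differences in log2(RPKM + 1) with standard errors as bars and dotted lines at the fold mark of 1. Ccdc3 stands at 3.30 and 3.53 in the 2 comparisons with the ventral hindbrain, and Iqcj at 1.45 in the ventral forebrain.

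The order of the regions over E12.5 to E14.5 fell into few types. In Gucy2c, Iqcj, Hepacam2 and Cpne7 the ventral forebrain had the next highest mean over these stages, at 0.755, 2.59, 2.10 and 0.843 RPKM. In Slc35d3 and Fam210b it was the ventral hindbrain, at 0.660 and 15.7 RPKM. For Slc35d3 the libraries of the other 4 regions overlapped, and their order is not resolved. In Elovl3 and Tmem207 the means of the other regions were at most 0.0829 and 0.088 RPKM, and their order is not resolved either. The 9 ventral forebrain libraries overlapped those of the ventral hindbrain in Iqcj (0.820 to 4.26 against 0.597 to 1.66), Hepacam2 (0.589 to 3.38 against 0.361 to 1.06) and Cpne7.

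Over the 20 group means the members were also set against established genes of the tissue. Elovl3, Gucy2c, Slc35d3 and Cpne7 followed Slc6a3 at r = 0.98, 0.93, 0.93 and 0.93, Th at 0.90, 0.90, 0.87 and 0.85, and Lmx1a at 0.54, 0.69, 0.51 and 0.55. Hepacam2, Iqcj and Tmem207 followed Slc6a3 at 0.83, 0.85 and 0.80, Th at 0.95, 0.90 and 0.90, and Lmx1a at 0.84, 0.78 and 0.72. All 7 thus had a high Pearson's r with Th. Fam210b was most like Foxa2 among the 5 reference genes (r = 0.94), while Ccdc3 was most like Slc18a3 (0.82). These values share the same libraries and the same high ventral midbrain groups, and the E11.5 libraries that go against their labels enter them. Genes chosen as high in the ventral midbrain tend to share such an r, so it says little beyond that choice. By Spearman's rho over the 20 groups Slc6a3 stood lower, at 0.35 with Elovl3, 0.53 with Gucy2c and 0.61 with Cpne7. Th stood at 0.60 with Gucy2c and 0.92 with Hepacam2. Without E11.5, on 15 group means, Elovl3, Gucy2c, Slc35d3 and Cpne7 followed Slc6a3 at 0.98, 0.93, 0.94 and 0.94, and Lmx1a at 0.69, 0.90, 0.65 and 0.83. Hepacam2, Iqcj and Tmem207 then followed Slc6a3 at 0.93, 0.89 and 0.95, and Lmx1a at 0.88, 0.93 and 0.72. The values of these 2 sets of genes thus overlapped for both Slc6a3 and Lmx1a once E11.5 was left out.

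**Figure D5:**
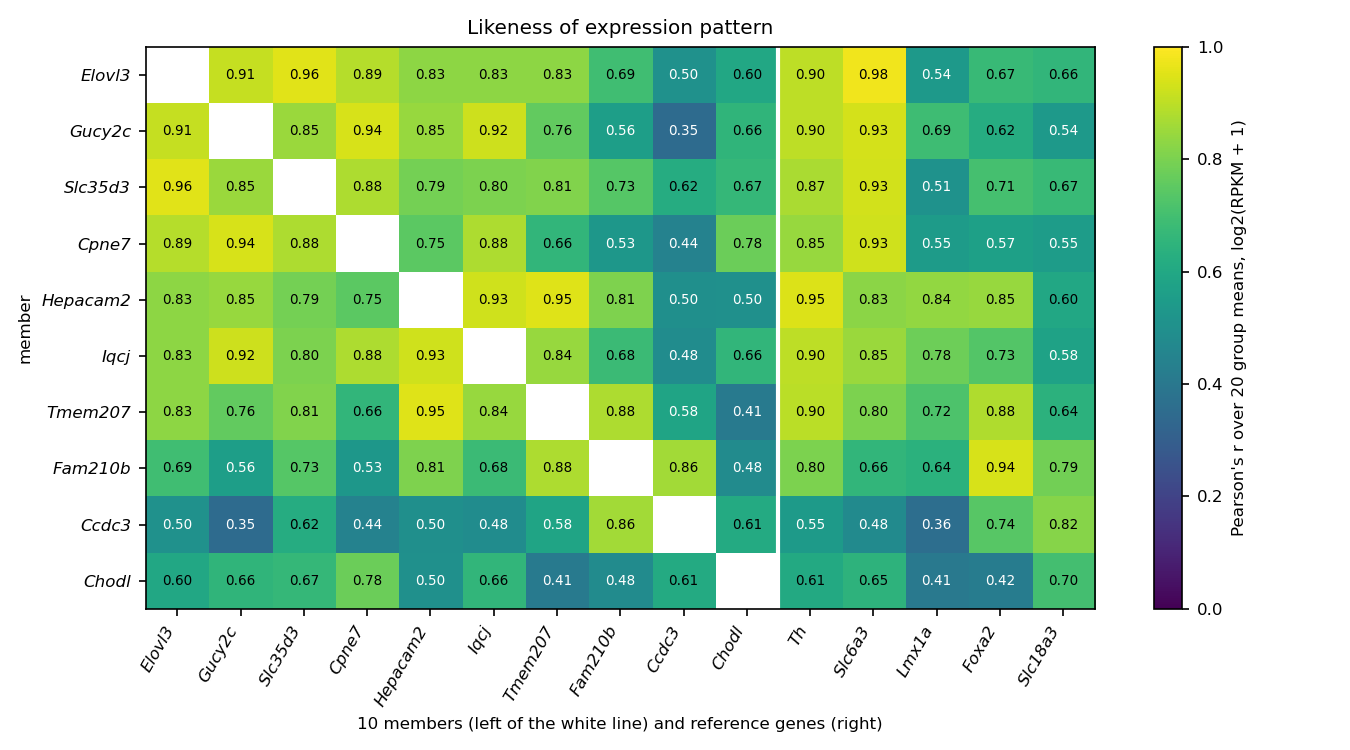
Pearson's r of each member (rows) with the other members and with 5 reference genes (columns), over 20 group means of log2(RPKM + 1). Elovl3, Gucy2c, Slc35d3 and Cpne7 are bright under Slc6a3 (0.93 to 0.98), and Ccdc3 is darkest under Gucy2c and Lmx1a (0.35 and 0.36).

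Among all 10586 features the 3 most like each member gave some names several times. Slc6a3 was among the first 3 of Elovl3, Gucy2c and Cpne7, and Chrna6, a nicotinic receptor subunit of dopaminergic neurons, among those of Elovl3, Slc35d3 and Cpne7. Bfsp2, a beaded filament gene best known from the lens, was among the first 3 of Gucy2c (r = 0.92), Iqcj (0.95) and Hepacam2 (0.92). Acvr1, a receptor of the bone morphogenetic protein family, came up for Iqcj, Tmem207 and Hepacam2. Others were Th for Gucy2c and Hepacam2, Pitx3 and Pvalb for Slc35d3, Rxrg for Iqcj and Mboat1 for Tmem207. For Fam210b they were Vill, Gfra1 and Corin (r = 0.95 each), and for Chodl Fgd5 (0.92), Lmo4 and Wdr52 (0.90 each).

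Of the 62 relatives and locus neighbours listed for the 10 genes, 51 were tested and 3 were called higher in the ventral midbrain, Cldn1, Hepacam and Schip1, with none lower. Over all 14310 tested features 1.97% were called higher and 0.531% lower. The share of all features with an unadjusted p below 0.05 was not counted, so the family counts at that mark have no background. The median log2 difference of the 51 was 0.04. All 3 called genes came from the group of close relatives and locus neighbours, of which 5 were tested. That group did not hold every flanking gene. It left out Pitx3 and Il1rap, which read higher in the ventral midbrain, and Nolc1, which did not (25.8 against 28.4 RPKM). Its calls therefore give no rate for neighbours of the members.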

How the data were processed

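RNA was measured in 60 libraries, 3 for each of 20 groups of region and stage. The authors deposited RPKM per feature, with reads mapped by Bowtie to mm10, per the submitters' processing notes. Not given in the sources used here are the read counter, the annotation, the strand handling and the Bowtie version. Values were read back as whole reads (100.0% whole within 0.001 of a read), and 3 reads were taken as an approximate upper limit for a count of 0. A library's total sets the worth of 1 read, so E11.5 and E14.5 libraries resolve low genes less well.

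All 60 columns were matched to samples by name. The deposited RPKM were tested on the log2(RPKM + 1) scale with limma 3.58.1 (R 4.3.3, trended variance). Features with a mean of at least 1 RPKM in any group of a fit were tested, with Benjamini-Hochberg adjustment over all of them, and called at an adjusted p below 0.05 and a log2 difference of at least 1. A pseudocount of 1 understates changes of low genes. Stage steps used the 12 ventral midbrain libraries, comparisons of other regions 36 libraries from E12.5 to E14.5 (dorsal midbrain to E13.5, since its E14.5 libraries carry another run prefix), and relatives 45. In the last of these the ventral and dorsal midbrain at E14.5 were run apart from the other regions.

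Named genes are the 10 members, called relatives (up to 8), 5 reference genes and, per member, the 3 most alike features by Pearson's r among those with a group mean of at least 5 RPKM. Other relatives, flanking genes and marker genes beyond this rule were chosen after their values were seen. A further reference gene, which was also a motor neuron marker, and 1 of the alike genes are not reported here. The members and lists were chosen with earlier results of these data known. Alternatives were a pseudocount of 0.1, no filter, rescaled libraries, voom on recovered reads, a replicate block, leaving out each library, other stage sets and a joint fit. The script was tested on simulated data. Sequences are from RefSeq (GRCm38.p6), where 7 of the 10 members were matched, and positions from GENCODE vM21.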

Additional observations from a re-analysis of the deposited data

Results flagged for a closer look

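In a few genes all libraries of 1 region shifted one way between successive stages while all libraries of another shifted the opposite way, on the log2(RPKM + 1) scale. The differences between the shifts were not tested. From E12.5 to E13.5 Chodl shifted by 1.1389 in the ventral hindbrain and by -0.2795 in the ventral midbrain. From E13.5 to E14.5 it shifted by -0.7438 in the ventral hindbrain, by 0.9517 in the ventral midbrain and by 0.7193 in the ventral forebrain. Chodl thus peaked at E13.5 in the ventral hindbrain.

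From E12.5 to E13.5 Hepacam2 shifted by 0.3444 in the alar plate and by -0.4057 in the ventral midbrain, and Fam210b by 0.5524 and -0.3738 in the same 2 regions. Ccdc3 shifted by 0.508 in the alar plate and by -0.5283 in the ventral hindbrain over the same step.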

How the results depend on the processing

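No alternative reversed the sign of a called difference. The number of members called between E13.5 and E14.5 was 1 with a pseudocount of 0.1, with rescaled libraries and with voom, against 0, and 0 to 1 with 1 library left out. For the ventral hindbrain against the alar plate it was 4 with the pseudocount of 0.1 and with voom, against 2 (2 to 3 with 1 library left out). For the ventral forebrain against the alar plate it was 4 under both of these and 2 with E11.5 included, against 1. For the ventral hindbrain against the ventral forebrain it was 5 under both, against 2, and 1 to 2 with 1 library left out. For the dorsal midbrain against the alar plate it was 3 with voom, against 0. Relatives called were 5 with voom, against 3. From E11.5 to E12.5 members called ranged from 7 to 9 with 1 library left out.

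Counts over all features moved as well. Under the pseudocount of 0.1 and under voom they were 1957 and 2119 from E11.5 to E12.5 (against 1284), 907 and 1010 for the ventral hindbrain against the alar plate (437), and 829 and 837 for the ventral midbrain against the rest (358). From E12.5 to E13.5 they were 93 with voom, 0 with the replicate block and 3 in the joint fit (7), and 0 to 26 with 1 library left out. From E13.5 to E14.5 they were 647 and 592, and 0 with the block (300). Pseudocount and voom also gave 448 and 464 for the ventral forebrain against the alar plate (247), 645 and 689 for the hindbrain against the forebrain (343; 227 with E11.5 included), and 813 and 982 for the dorsal midbrain against the alar plate (421). The causes were not tested.

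Within a stage, same-numbered libraries of different regions deviated together more than other pairs did from E12.5 on, but not in every pair. The mean r was -0.032 at E11.5 (other pairs 0.016), 0.176 at E12.5 (-0.09), 0.234 at E13.5 (-0.117) and 0.123 at E14.5 (-0.061). The labels state no pairing, and the main fits did not pair samples by number. In the stage steps the replicate block ties equal numbers on different days, which cannot be the same embryo. With the replicate block 6 members were called from E11.5 to E12.5 against 8: Hepacam2 (1.63, adjusted p = 0.115) and Ccdc3 (2.02, adjusted p = 0.257) were not. Of the 30 nearest patterns, 4 were shared when Spearman's rho was used and 12 without E11.5. Genes of a few RPKM rest on few reads, which limits the E11.5 and E14.5 values most.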
